A study of Mus musculus with 6 samples.

Results

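Homologous recombination, Fanconi and checkpoint genes were followed in activated mouse CD4 T cells short of arginine. The set holds 37 genes given by symbol, and each was taken at the probe set that names it alone, the brightest by mean over the 6 arrays where there were several. Of these, 33 could be analysed, out of 22180 genes with such a probe set. Fanca and Rad54b share their probe sets with other genes, and these members and Xrcc2 and Rbbp8 were not analysed here.

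The cells were CD4 T cells of OT-II mice, in which all groups carry a transgenic T cell receptor for a peptide of ovalbumin. They came from spleen and lymph nodes of mice aged 12 to 16 weeks, were cultured for 72 hours with antigen-presenting cells and the peptide, and CD4 cells were purified again before lysis. In the low arginine group (3 arrays) the medium held 1% of the normal arginine (12 uM), and in the control group (3 arrays) it was complete RPMI-1640. Both media contained 10% dialysed serum, and their RNA was hybridised to Affymetrix arrays that cover whole transcripts in 1 colour. The study names 6 mice, and the labels call the arrays of a group biological replicates without saying which mice gave which array.

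Homologous recombination copies the sequence of a sister chromatid to mend a broken or stalled DNA strand, and it is used mainly while cells replicate. Break ends are trimmed, Brca1, Palb2 and Brca2 prepare the single strand for pairing with the sister, and helicases and nucleases take the joined molecules apart. The Fanconi pathway unhooks crosslinked strands by attaching ubiquitin to Fancd2 and Fanci, and the kinases Atm and Atr report damage to Chek2 and Chek1, which hold the cell cycle. T cells divide quickly after stimulation, and many of these genes are known to be most active in dividing cells.

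The labelled cell type was checked first. The 7 T cell markers analysed averaged 9.18 to 9.41 on the log2 scale in low arginine arrays and 9.26 to 9.45 in control arrays, and limma called 0 of them (the same count held at an unadjusted p under 0.05). B cell markers averaged 2.57 to 2.73 in low arginine arrays and 2.62 to 2.81 in control arrays. Myeloid and dendritic markers averaged 2.48 to 2.64 in low arginine arrays and 2.46 to 2.50 in control arrays. These averages lay near 2.48, the level under which the dimmest genes were left out. CD8 and natural killer markers averaged 3.28 to 3.32 in low arginine arrays and 3.58 to 3.94 in control arrays, and 1 of 3 tested, Klrk1, fell (change -1.04, limma adjusted p = 0.0134). Cd8b1, the brightest of these 5 markers, read 6.06, 6.47 and 6.18 in low arginine arrays, against 6.52, 7.15 and 7.03 in control arrays, without overlap (change -0.66, adjusted p = 0.0632). Both genes were picked out after their values were seen. What part these cells had in the results was not tested. The files hold no detection calls, and precision is limited by having 3 arrays in each group.

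In low arginine 7 members fell and 1 rose. Brca1 and Palb2 of the BRCA group, Rad54l and Rad51ap1 of strand exchange, the helicase Blm, the kinase Chek2 and the checkpoint scaffold Topbp1 were lower, and the kinase Atm was higher. The falls ran from 0.64 to 1.54 on the log2 scale, which left 64.2% to 34.4% of the control level, and Atm rose by 0.58, to 149.7% of control. Calls were made with limma at a Benjamini-Hochberg adjusted p under 0.05 over 14787 genes, and all 33 analysed members had passed the filter on dim genes. A share of 21.2% of members fell, where 6.98% of all genes tested did, and 3.03% rose, where 5.19% of all genes did. Those shares are 1032 falls and 767 rises, and after centring at the 75th percentile they became 1190 and 535, with 9 members lower and 1 higher. The median change of the members was -0.45 on the log2 scale, and that of all genes tested was 0.01. In bulk RNA, fewer cells of a type and less RNA per cell cannot be told apart.

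All 3 low arginine arrays lay below all 3 control arrays for 16 of the 33 members, or 48.5%, where 16.2% of all genes tested did so. These 16 are the 7 called falls and 9 members that did not pass, namely Fancd2, Fanci, Fancm, Bard1, Brip1, Xrcc3, Exo1, Atr and Clspn. Only Atm lay above in all low arginine arrays, against 16% of all genes tested. The remaining 16 members overlapped between the groups. The calls leaned on single arrays: 14 members fell without low arginine replicate 1, 2 without low arginine replicate 2 or 3 or control replicate 2, and 3 without control replicate 3. The calls over all 14787 genes tested moved as well. Of these, 663 fell without low arginine replicate 1, 348 without replicate 2 and 392 without replicate 3. Over all runs that left out 1 array, the falls numbered 338 to 1699. Atm was not called without low arginine replicate 1 or 2 or control replicate 2 (limma adjusted p = 0.0517 to 0.0772).

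**Figure D1:**
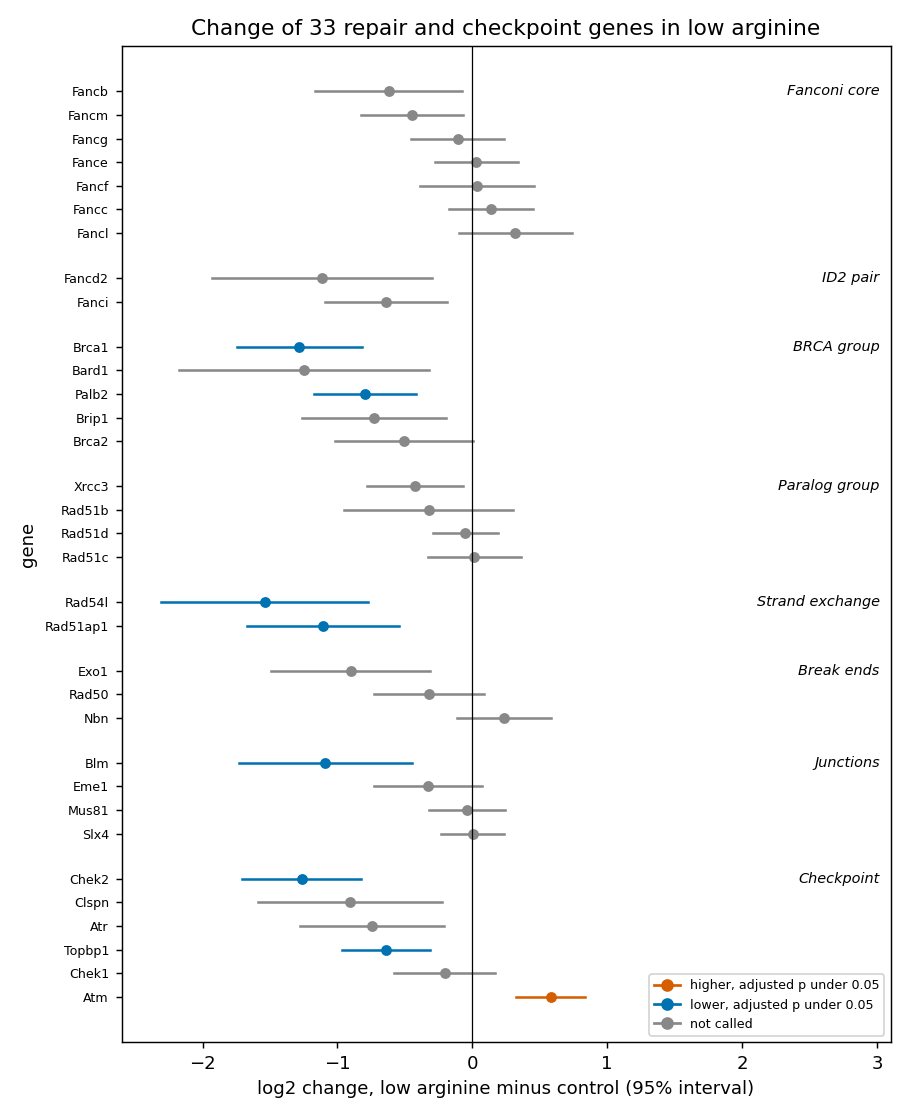
Log2 change of each of the 33 members (rows, grouped by role), low arginine minus control, with bars for the 95% interval from limma on 3 low arginine and 3 control arrays. The 7 called falls are blue and lie between -1.54 and -0.64, Atm alone is orange at 0.58, and the members not called are grey.

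Among the proteins of the BRCA group, Brca1 and Palb2 fell. Brca1, a ubiquitin ligase subunit that promotes end trimming, read 6.23, 5.44 and 5.66 in low arginine arrays 1, 2 and 3, against 6.97, 7.06 and 7.15 in control arrays. The groups were separated by a wide gap, and low arginine replicate 1 lay nearest to the controls. It averaged 5.78 ± 0.41 in low arginine and 7.06 ± 0.09 in control (SD, n = 3 each), a change of -1.28 ± 0.20 (SE; limma adjusted p = 0.0092). Brca1 was past the threshold in all 15 alternatives tried (adjusted p = 4.57e-04 to 0.0487).

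Palb2, which bridges Brca1 and Brca2, read 4.57, 3.98 and 4.47 in low arginine arrays, against 5.18, 5.09 and 5.14 in control arrays. The control arrays lay close together and every low arginine array was lower. Its change was -0.79 ± 0.16 (limma adjusted p = 0.0216), and the call was lost without low arginine replicate 2 or 3 or control replicate 2 or 3 (adjusted p = 0.0514 to 0.0789). The other 3 members of this group did not pass. Bard1, the partner of Brca1 in the ligase, read 5.72, 4.88 and 3.90 in low arginine arrays and 5.88, 6.12 and 6.25 in control arrays. Its change of -1.25 was close to that of Brca1, with an interval from -2.17 to -0.32 (adjusted p = 0.0858), as the low arginine arrays were far apart. Brip1, a helicase that binds Brca1, changed by -0.73 (adjusted p = 0.0833), with every low arginine array below every control array. Brca2, a tumour suppressor that binds Palb2, changed by -0.51 (adjusted p = 0.185), and its low arginine replicate 1, at 6.08, lay above control replicate 3, at 5.87. Each of these 3 passed in only 2 of the 15 alternatives. Without low arginine replicate 1, the highest of its group for each, Bard1 passed at -1.69 (adjusted p = 0.0225), Brip1 at -1.0 (0.012) and Brca2 at -0.75 (0.046). They passed with array weights too (0.00581 to 0.013). Over the alternatives the limma adjusted p reached 0.220 for Bard1, 0.248 for Brip1 and 0.460 for Brca2.

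Both strand exchange proteins that could be analysed fell. Rad54l, a motor of strand invasion, read 5.02, 4.06 and 3.70 in low arginine arrays, against 6.17, 5.66 and 5.56 in control arrays. It averaged 4.26 ± 0.68 in low arginine and 5.80 ± 0.33 in control (SD, n = 3 each), a change of -1.54 ± 0.33 (limma adjusted p = 0.0251), the largest among the members. Rad51ap1, which stimulates strand pairing, read 5.06, 4.19 and 4.23 in low arginine arrays, against 5.35, 5.77 and 5.68 in control arrays. Low arginine replicate 1 and control replicate 1 came closest, and the groups did not overlap. Its change was -1.11 ± 0.24 (limma adjusted p = 0.0268). The call of Rad54l was lost without low arginine replicate 2 or 3 or control replicate 2 (adjusted p = 0.0832 to 0.104). That of Rad51ap1 was lost without any of these or control replicate 3 (0.068 to 0.108).

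The paralog group (Rad51b, Rad51c, Rad51d and Xrcc3), which assists strand exchange, gave 0 calls among 4 tested, and 1 of them, Xrcc3, was lower at an unadjusted p under 0.05. With 4 genes these counts are near the shares of all genes tested, of which 12.2% were called and 13.9% were lower at that unadjusted p. Xrcc3 changed by -0.43 (interval -0.78 to -0.07, limma adjusted p = 0.117) with groups that did not overlap. Rad51d read 6.16, 5.97 and 6.12 in low arginine arrays and 6.18, 6.10 and 6.13 in control arrays. Its change was -0.05, with a 95% interval from -0.30 to 0.19. Rad51c changed by 0.02 (interval -0.33 to 0.36) and Rad51b by -0.32 (interval -0.95 to 0.30). All 4 intervals leave out changes as low as the estimates for Rad54l and Rad51ap1. The intervals of Rad54l (-2.30 to -0.77) and Rad51ap1 (-1.67 to -0.54) overlapped those of Rad51b and Xrcc3. A difference between the 2 groups of genes was not tested.

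At break ends, the trimming nuclease Exo1 was nearest to the threshold of all members not called. It read 5.84, 4.98 and 5.25 in low arginine arrays, against 6.67, 6.13 and 5.99 in control arrays, a change of -0.90 ± 0.25 (limma adjusted p = 0.059). It passed after quantile normalization (0.0464), after centring on the 75th percentile (0.0441), with array weights (0.00739), with the replicate number as a block (0.0151) and without low arginine replicate 1 (0.0344). Exo1 passed in only these 5 of the 15 alternatives, and its adjusted p reached 0.192. Rad50 and Nbn, subunits of the complex that senses broken ends, did not pass. Rad50 changed by -0.32 (interval -0.73 to 0.08) and Nbn by 0.23 (interval -0.12 to 0.58).

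**Figure D2:**
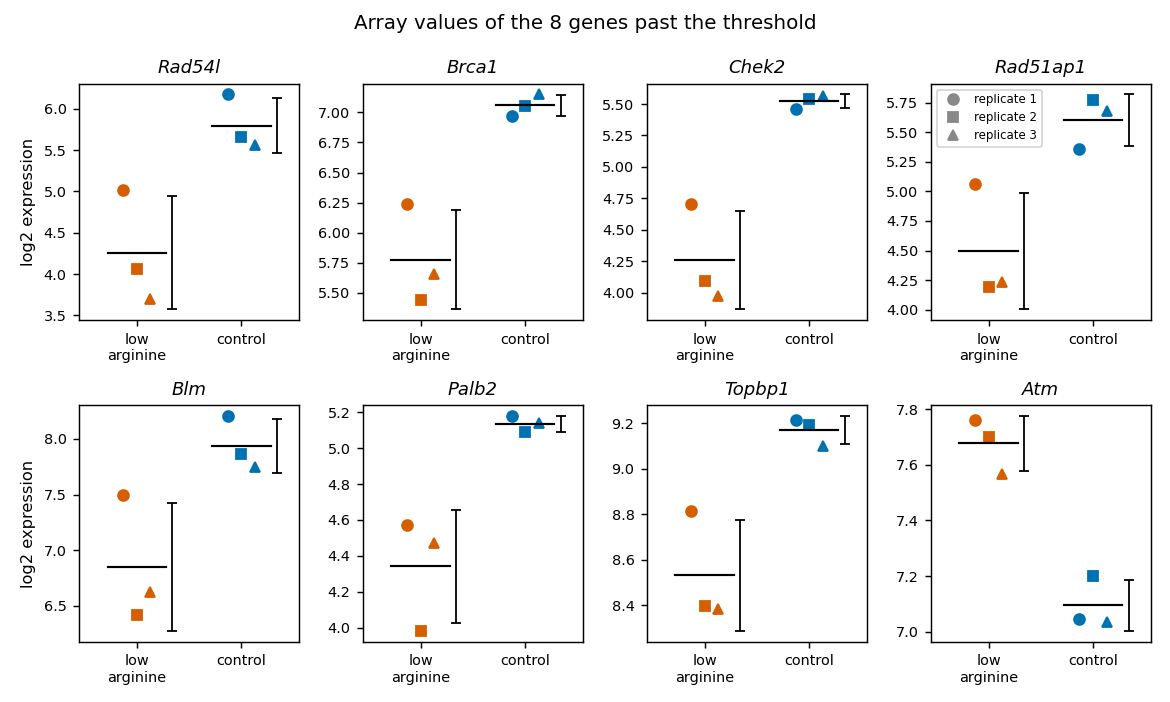
Log2 expression in each array for the 8 members past the threshold, with low arginine (orange) left of control (blue); symbols mark the replicate, the line is the group mean and the bar its SD (n = 3). In each of the 7 genes that fell, low arginine replicate 1 is the highest of its group, and every panel has its own axis because probe sets are not comparable in level.

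Of the genes that resolve joined molecules, Blm fell. This helicase, which undoes double junctions and is missing in Bloom syndrome, read 7.50, 6.41 and 6.63 in low arginine arrays, against 8.21, 7.86 and 7.74 in control arrays. Its change was -1.09 ± 0.28 (limma adjusted p = 0.042), and without any single array other than low arginine replicate 1 it did not pass (0.0511 to 0.151), nor did it with no filter on dim genes (0.0523). The nucleases did not pass. Mus81 changed by -0.04 (interval -0.32 to 0.25), its partner Eme1 by -0.33 (interval -0.73 to 0.07) and the scaffold Slx4 by 0.00 (interval -0.23 to 0.23). Slx4 had the narrowest interval of the 33 members.

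The checkpoint genes moved in both directions. Chek2, the effector kinase downstream of Atm, read 4.71, 4.10 and 3.98 in low arginine arrays, against 5.46, 5.54 and 5.57 in control arrays. It averaged 4.26 ± 0.39 in low arginine and 5.52 ± 0.05 in control (SD, n = 3 each), a change of -1.26 ± 0.19 (limma adjusted p = 0.00838), the lowest adjusted p of the set. Like Brca1 it was past the threshold in all 15 alternatives (adjusted p = 3.6e-04 to 0.0469). Topbp1, which switches on Atr and takes part in starting replication, read 8.81, 8.40 and 8.38 in low arginine arrays, against 9.22, 9.19 and 9.10 in control arrays. Each group of Topbp1 was tight apart from low arginine replicate 1, and the change was -0.64 ± 0.14 (limma adjusted p = 0.0275). It was lost without low arginine replicate 2 or 3 or control replicate 2 or 3 (0.0512 to 0.113).

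Atm, the kinase that answers double-strand breaks, was the single member that rose. It read 7.76, 7.70 and 7.57 in low arginine arrays, against 7.05, 7.20 and 7.04 in control arrays. Both groups were tight and far apart relative to their spread, and here low arginine replicate 1 was not nearer to the controls. The change was 0.58 ± 0.11 (limma adjusted p = 0.0163). Atr, the kinase that answers stalled forks, read 6.53, 6.42 and 6.43 in low arginine arrays, against 6.67, 7.29 and 7.65 in control arrays. Its change was -0.74 ± 0.23 (adjusted p = 0.0776), and without control replicate 1, which lay lowest of its group, it passed at -1.01 (0.00245), as it did with array weights (-0.84, 0.000857). Atr passed in only these 2 of the 15 alternatives. A second, dimmer probe set of Atr went the other way, by 0.12, and with the mean of both probe sets the change of Atr was -0.31 (adjusted p = 0.241). Clspn, the adaptor between Atr and Chek1, changed by -0.91 (adjusted p = 0.0894), with every low arginine array below every control array. Chek1, the effector kinase downstream of Atr, read 6.97, 6.57 and 6.37 in low arginine arrays and 6.89, 6.88 and 6.76 in control arrays. Low arginine replicate 1 was the highest of the 6 Chek1 values, and the change was -0.20 (interval -0.58 to 0.17, adjusted p = 0.487).

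The stretch around the transcription start is shown for the calls that held in every alternative (Chek2 and Brca1), for the checkpoint scaffold that fell (Topbp1) and for the gene that rose (Atm). Each window runs from 250 bases before to 50 after the start, is taken from RefSeq on GRCm38.p6 and is written along the gene's own strand. The windows are chr5:110839733-110840032 (plus strand) for Chek2, chr11:101551906-101552205 (minus) for Brca1, chr9:103305077-103305376 (plus) for Topbp1 and chr9:53536622-53536921 (minus) for Atm. Capitals mark matches, on either strand, to an E2F motif (TTTCCCGC, TTTCGCGC, TTTGCCGC or TTTGGCGC) or to the CCAAT box (CCAAT, reading ATTGG on the other strand).
Chek2: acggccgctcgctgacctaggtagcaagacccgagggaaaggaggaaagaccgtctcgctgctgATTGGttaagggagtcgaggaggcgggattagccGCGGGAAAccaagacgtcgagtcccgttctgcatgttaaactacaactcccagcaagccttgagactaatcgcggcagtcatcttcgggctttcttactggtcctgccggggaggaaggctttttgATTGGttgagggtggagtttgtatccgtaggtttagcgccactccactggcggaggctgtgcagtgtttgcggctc
Brca1: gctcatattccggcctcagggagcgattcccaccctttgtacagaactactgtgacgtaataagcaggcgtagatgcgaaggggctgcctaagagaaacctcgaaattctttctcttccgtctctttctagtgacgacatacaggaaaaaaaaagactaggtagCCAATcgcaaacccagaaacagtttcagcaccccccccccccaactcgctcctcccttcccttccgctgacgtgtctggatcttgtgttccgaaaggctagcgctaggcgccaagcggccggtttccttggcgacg
Topbp1: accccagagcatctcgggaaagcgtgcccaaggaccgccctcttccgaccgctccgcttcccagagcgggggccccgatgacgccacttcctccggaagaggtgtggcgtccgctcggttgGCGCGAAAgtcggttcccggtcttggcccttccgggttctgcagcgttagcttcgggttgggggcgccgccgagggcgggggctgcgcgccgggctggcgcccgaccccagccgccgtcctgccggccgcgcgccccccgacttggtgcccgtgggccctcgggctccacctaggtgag
Atm: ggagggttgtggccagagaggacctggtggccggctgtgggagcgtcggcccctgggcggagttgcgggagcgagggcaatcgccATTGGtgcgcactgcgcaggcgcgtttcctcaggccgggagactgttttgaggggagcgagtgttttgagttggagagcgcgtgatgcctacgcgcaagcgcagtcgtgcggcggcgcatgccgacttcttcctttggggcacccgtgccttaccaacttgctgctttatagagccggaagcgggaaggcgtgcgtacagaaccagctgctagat
The Chek2 window holds an E2F match 152 to 145 bases before the start and CCAAT boxes ending 182 and 22 bases before it. Topbp1 has an E2F match 129 to 122 bases before its start. Brca1 and Atm have a CCAAT box each and no E2F match in these windows.

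E2F factors drive genes of DNA synthesis, and factors that bind the CCAAT box serve many cell cycle genes. Of the 33 members analysed, 28 had a window, and 7 of these (25%) held an E2F match, where 2.6% of 27025 genes with a window did. A match was found in 2 of the 7 genes that fell, in 5 of 20 that were not called (Bard1, Brca2, Clspn, Fancg and Rad51c) and not in Atm. The 7 genes with an E2F match changed by -1.26 (Chek2), -1.25 (Bard1), -0.91 (Clspn), -0.64 (Topbp1), -0.51 (Brca2), -0.11 (Fancg) and 0.02 (Rad51c). A CCAAT box was found in 6 of the 7 genes that fell, in 10 of 20 not called and in 41.1% of all genes. The cell cycle element CHR (TTTGAA or TTCGAA) stood in none of the 7 fallen genes, in 4 of 28 members and in 21.7% of all genes. No E2F match overlapped a CCAAT box in the members' windows. A match is a run of letters and not a measured binding site.

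In the Fanconi core complex and the pair Fancd2 and Fanci no member analysed passed the threshold. Among the members given above with other groups, Brca1, Palb2, Brca2, Brip1, Rad51c and Slx4 are also counted as Fanconi genes. Of these Brca1 and Palb2 fell, and Brca2, Brip1, Rad51c and Slx4 were not called (limma adjusted p = 0.0833 to 0.994). Of the 7 core complex members tested, limma called 0, and 2 (Fancb and Fancm) were lower at an unadjusted p under 0.05. Of all genes tested 12.2% were called, and 13.9% were lower at that unadjusted p. With 7 genes, 0 calls is near that share. The median change of the 7 core members was 0.03, and the range ran from -0.62 for Fancb to 0.32 for Fancl. Fancb, a scaffold subunit, read 3.73, 2.89 and 3.27 in low arginine arrays and 4.23, 3.62 and 3.89 in control arrays, with overlap (adjusted p = 0.135). Fancm, the motor that anchors the complex on DNA, changed by -0.45 (interval -0.82 to -0.07, adjusted p = 0.124). The ligase subunit Fancl changed by 0.32 (interval -0.10 to 0.74). The scaffold subunits Fancc, Fance, Fancf and Fancg changed by 0.14, 0.03, 0.03 and -0.11, and all 4 overlapped between groups. After quantile normalization Fance and Fancf took the opposite sign, at -0.03 and -0.05.

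Fancd2 and Fanci, the pair that receives ubiquitin from the core complex, both lay lower in every low arginine array. Fancd2 read 6.98, 5.79 and 5.46 in low arginine arrays, against 7.04, 7.21 and 7.32 in control arrays. Low arginine replicate 1 was just under control replicate 1, while the other low arginine arrays were far below every control. The change was -1.11 ± 0.35 (limma adjusted p = 0.0832), and without low arginine replicate 1 it was -1.56 (0.00345) and with array weights -1.18 (0.0102). Fancd2 passed in only these 2 of the 15 alternatives, and its adjusted p reached 0.246. Fanci read 5.34, 4.55 and 4.98 in low arginine arrays, against 5.62, 5.50 and 5.68 in control arrays. Its change was -0.64 ± 0.19 (adjusted p = 0.0738), and it passed after quantile normalization (0.0469), after centring on the 75th percentile (0.0454), with array weights (0.0174) and without low arginine replicate 1 (0.0349). Fanci passed in only these 4 of the 15 alternatives, and its adjusted p reached 0.185.

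**Figure D3:**
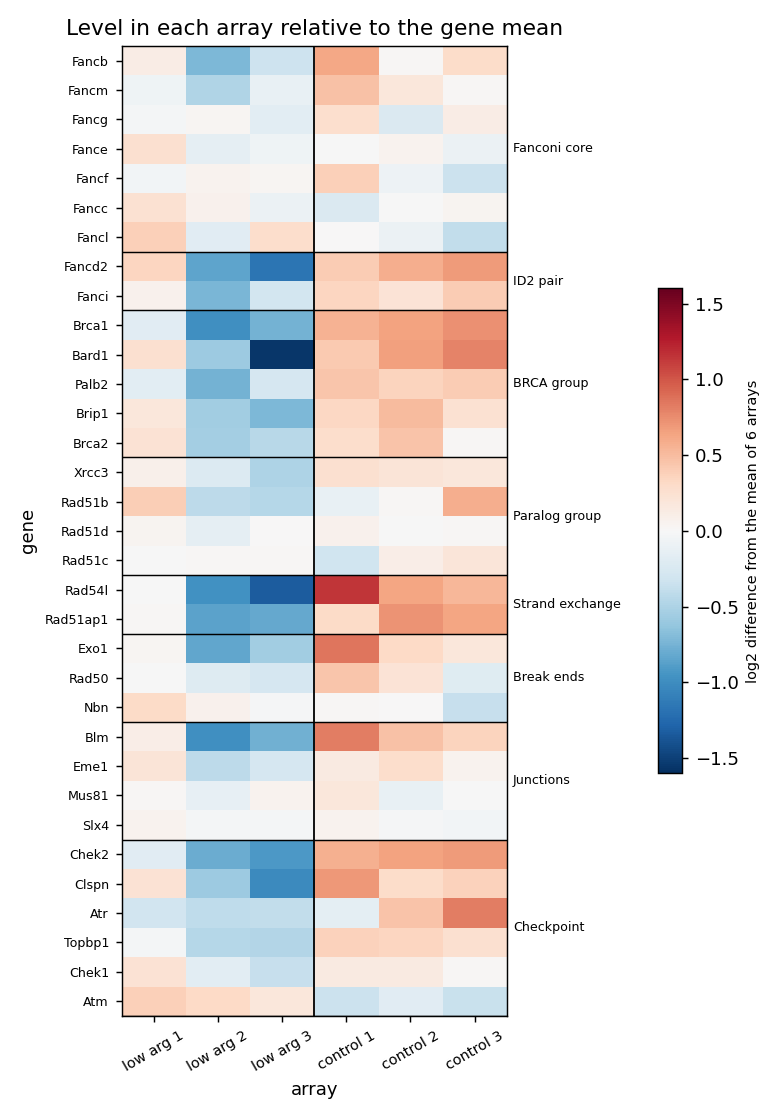
Level of each member (rows, by role) in each array (columns, low arginine left of control), as the log2 difference from that gene's mean over 6 arrays, blue for lower and red for higher. Low arginine replicates 2 and 3 are blue over the BRCA group, the ID2 pair and strand exchange. In these groups low arginine replicate 1 is blue for Brca1 and Palb2 and near the gene mean for Rad54l and Rad51ap1. It is on the red side for Bard1, Brca2, Brip1, Fancd2 and Fanci. Atm is red in low arginine and blue in control.

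The low arginine arrays differed among themselves over these genes. Replicate 1 was the highest of its group for 29 of 33 members (87.9%), where it was so for 31.1% of all genes tested. The median deviation of the members from their mean over 6 arrays was 0.06, -0.42 and -0.34 in low arginine arrays 1, 2 and 3, against 0.31, 0.22 and 0.18 in control arrays. Over the 7 genes that fell it was -0.04, -0.86 and -0.77 in low arginine arrays, against 0.55, 0.63 and 0.53 in control arrays. The spread within low arginine (median SD 0.30) was above that within control (0.19) and was the larger for 25 of 33 members (75.8%), against 33.8% of all genes tested.

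Among markers of proliferation too, low arginine replicate 1 was the highest of its group by median deviation from the mean over 6 arrays (0.10, against -1.05 in replicate 2 and -1.36 in replicate 3), while the order of the other arrays differed from that of the members. Mki67, the marker of cycling cells, read 9.27, 8.03 and 7.83 in low arginine arrays, against 9.97, 10.05 and 9.99 in control arrays (limma adjusted p = 0.0228). The call of Mki67 was lost without low arginine replicate 2 or 3 or control replicate 2 or 3 (adjusted p = 0.0554 to 0.0967). Top2a, the topoisomerase of dividing cells, read 8.81, 7.67 and 7.20 in low arginine arrays, against 9.41, 9.65 and 9.56 in control arrays (limma adjusted p = 0.0271). With the survivin gene Birc5, picked out after its values were seen, 3 of the 5 proliferation markers tested fell. The replication clamp Pcna (change -0.27, adjusted p = 0.421) and the replicative helicase subunit Mcm2 (0.56, adjusted p = 0.217) did not pass, and their groups overlapped. Averaged over the 5 markers the arrays lay at 7.13 to 8.24 in low arginine and at 8.52 to 8.86 in control. The part of proliferation in the changes of the members was not tested.

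Genes that work in the same complex or at the same step were set against each other within each array. The probe sets' own brightness stays in these values and drops out only of the difference between low arginine and control. There were 8 such pairs, and the exact two-sided permutation test over 3 against 3 arrays cannot give a p under 0.1. Chek2 minus Chek1 was -2.38 ± 0.11 in low arginine and -1.32 ± 0.12 in control (SD, n = 3 each), a difference of -1.06 (exact p = 0.1, 0.267 adjusted over the pairs). The groups did not overlap, and low arginine replicate 1 lay with the others. Atm minus Atr was 1.22 ± 0.07 in low arginine and -0.11 ± 0.50 in control, a difference of 1.33 (exact p = 0.1, 0.267 adjusted). With the mean of the probe sets of Atr this difference was 0.89. Rad50 minus Nbn was 1.13 ± 0.03 in low arginine and 1.68 ± 0.13 in control, a difference of -0.56 (exact p = 0.1, 0.267 adjusted). The other 5 pairs overlapped between groups. Brca1 minus Bard1 differed by -0.04 (exact p = 1), while its SD was 0.70 in low arginine and 0.10 in control.

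**Figure D4:**
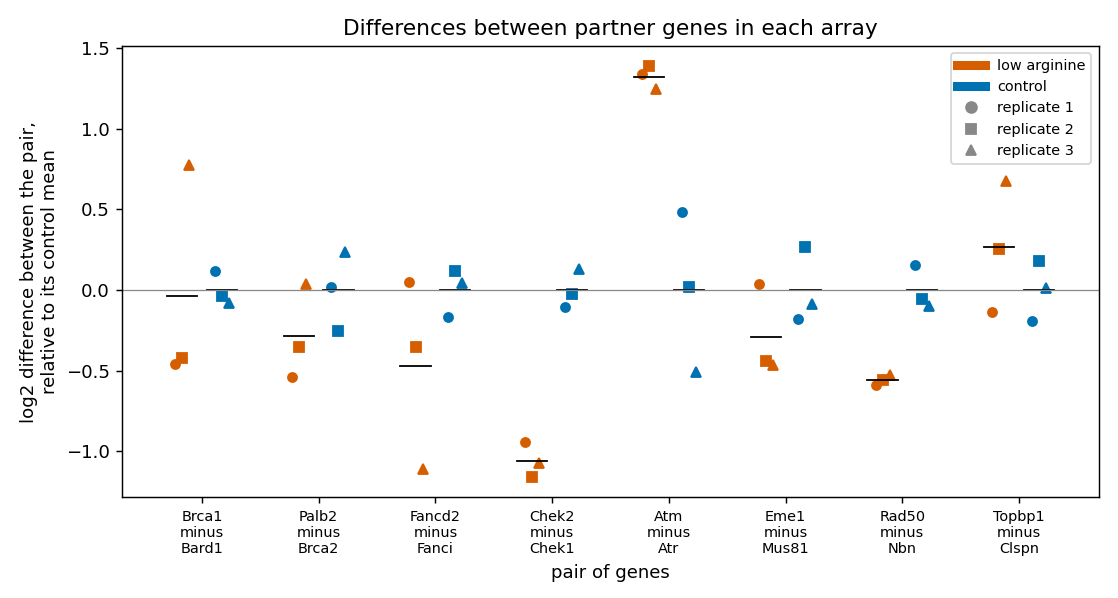
Log2 difference between the 2 genes of each of 8 pairs in each array, set to 0 at the pair's control mean, with low arginine (orange) left of control (blue), symbols for the replicate and lines for the group mean (n = 3). The groups are apart for Chek2 minus Chek1 (-1.06), Atm minus Atr (1.33) and Rad50 minus Nbn (-0.56), and overlap for the other 5 pairs.

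Among other repair and checkpoint genes, listed by function, 6 of 48 tested fell (12.5%) and 3 rose (6.25%), where 6.98% of all genes tested fell and 5.19% rose. The share that rose was near that of all genes, and the median change was -0.03. Cdk1, the mitotic kinase that also licenses end trimming, read 6.09, 4.95 and 4.14 in low arginine arrays, against 7.64, 7.22 and 7.34 in control arrays, a change of -2.34 (limma adjusted p = 0.0145). H2ax, the histone variant phosphorylated by Atm at breaks, fell by 1.27 (adjusted p = 0.0473), Ube2t, the enzyme that passes ubiquitin to Fancd2, by 0.93 (0.0348) and Swi5, a strand exchange factor that pairs with Sfr1, by 0.87 (0.0173). Ercc1, a subunit of the nuclease that cuts crosslinks, rose by 1.00 (adjusted p = 0.0145), Zswim7, a recombination factor, by 0.66 (0.0314), and Rev3l, the catalytic subunit of a lesion bypass polymerase, by 0.46 (0.046). After quantile normalization Zswim7 (adjusted p = 0.0501) and Rev3l (0.0505) no longer passed. Over the 15 alternatives tried, Cdk1 passed in 13, Ercc1 in 12, Swi5 in 11 and Ube2t in 10. H2ax passed in 9, Zswim7 in 8 and Rev3l in 5. Mre11a, the nuclease bound to Rad50, changed by -0.33 (adjusted p = 0.139), Wee1, the kinase that restrains Cdk1, by -0.47 (0.0813) and Atrip, the partner of Atr, by 0.07 (0.764). Limma called 0 of the 48 genes without low arginine replicate 2 (7 lower and 6 higher at an unadjusted p under 0.05) or without control replicate 2 (10 lower and 4 higher), and 1 fall and 0 rises without low arginine replicate 3 (8 lower and 4 higher). Of all 14787 genes tested, 348 fell and 161 rose without low arginine replicate 2, and 392 fell and 200 rose without replicate 3.

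End joining, which seals breaks without a template, had 1 rise and 0 falls among 7 genes tested, with 0 falls at an unadjusted p under 0.05 as well, and a median change of 0.07. With 7 genes these counts are near the shares of all genes tested, of which 6.98% fell and 5.19% rose. Prkdc, its DNA-dependent kinase, read 7.08, 7.01 and 7.12 in low arginine arrays, against 6.51, 6.23 and 6.46 in control arrays. The groups were far apart and the change was 0.67 ± 0.12 (limma adjusted p = 0.0126), lost without low arginine replicate 2 or 3 or control replicate 2 (0.0531 to 0.0605). Xrcc5 and Xrcc6, the Ku subunits that cap the ends, changed by 0.44 (adjusted p = 0.264) and -0.03 (0.919), and the ligase Lig4 by 0.16 (0.379).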

How the data were processed

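RNA of CD4 T cells was measured on 6 arrays, 3 from low arginine and 3 from control medium. The deposited file gives log2 expression for each probe set, already normalised by the authors, and the submitters' processing notes name the oligo package. How the background was corrected and probes were summarised, and the package version, are not given in the sources. Log base 2 was inferred, as values ran from 0.956 to 12.41. Array medians were 2.97 to 3.03.

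Of 41345 probe sets, 23521 carry exactly 1 gene symbol in GEO's platform annotation, 1814 several and 16010 none. The brightest stood for its gene, and the dimmest of the 22180 genes, a share of 0.333 (limit 2.48), were left out. Low arginine was set against control in limma 3.58.1 (R 4.3.3) by lmFit and eBayes with group as the only term, two-sided and adjusted by Benjamini and Hochberg over 14787 genes, with a threshold of 0.05. Intervals are limma's 95% intervals and SE its moderated standard error. Array intensities compress differences. Levels of different probe sets were set side by side only in choosing and filtering them, in describing markers and Atr, and within the pairs. The labels do not say which arrays share mice, so p-values measure the spread between these samples.

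All 37 members are named, those called with every array. Of the other repair genes, the 4 largest falls and rises called are named and 8 whatever their result. The members, lists, pairs and tests were chosen with earlier results of these data known. The test was checked on simulated data with independent noise and the same spread in both groups. That check does not cover unequal spread or an array that differs over many genes together. Alternatives were 3 normalizations, 2 filters, the mean of probe sets, a trended robust prior, array weights, the replicate block and leaving out each array. Figures used matplotlib 3.10.9.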

Additional observations from a re-analysis of the deposited data

How the results depend on the processing

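Of the 8 members called, Brca1 and Chek2 passed in all 15 alternatives and the other 6 were lost in at least 1. Of the 25 not called, 12 passed in none and 13 in some. The median change of the members ran from -0.60 to -0.36 over the alternatives, and that of all genes tested from -0.05 to 0.02. Leaving out each array in turn, the members that fell numbered 2 to 14 and those that rose 0 to 1, and their median change was -0.60 to -0.36. In the same runs 338 to 1699 of all genes fell and 161 to 1626 rose, other repair and checkpoint genes had 0 to 7 falls and 0 to 5 rises, and end joining genes had 0 to 2 rises. Array weights, which gave control replicate 2 a weight of 5.19 and control replicate 1 one of 0.239, moved the counts to 19 members lower, 2737 genes lower and 2777 higher, 13 other repair genes lower and 13 higher, and 2 end joining genes higher. Other repair genes that rose numbered 1 after quantile normalization. The cause of these moves was not tested.

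The replicate number as a block (replicate block) left 10 members called, 7 of them shared with the unpaired fit, with Rad51ap1 lost (adjusted p = 0.0506) and Fancb, Exo1 and Clspn gained, and 1 other repair gene that rose. Deviations of same-numbered arrays from their group means correlated at 0.12, 0.06 and 0.14 over 14787 genes, and each array correlated best with its own number, which is a hint from the data and not part of the design.

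Changes near 0 took the other sign in some settings, with no call in any. Quantile normalization gave Fance -0.034, Fancf -0.052, Rad51c -0.059 and Slx4 -0.053. Median centring gave Fance -0.0058, Fancf -0.0043, Rad51c -0.020 and Slx4 -0.034. Centring on the 75th percentile gave Fance -0.030, Fancf -0.028, Rad51c -0.045 and Slx4 -0.058. Array weights gave Fance -0.047, Fancg 0.134, Rad51c -0.088 and Mus81 0.070. Leaving out each array in turn, Fance ran from -0.090 to 0.110, Fancf from -0.133 to 0.231, Fancg from -0.247 to 0.0018, Rad51c from -0.142 to 0.115, Rad51d from -0.089 to 0.0043, Mus81 from -0.107 to 0.045 and Slx4 from -0.028 to 0.030.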
